A study of Mus musculus with 9 samples.

Results

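The genes of oxidative phosphorylation were followed in brain microvessels and in the remaining brain, complex by complex. Members were picked by symbol. A gene belonged to the set if its symbol began with Nduf, Uqcr or Atp5, or with Cox and a digit from 4 to 8, or if it was Sdha, Sdhb, Sdhc or Sdhd. Cox4i2 and Ndufa4l2 were kept apart. The rule found 88 genes on 177 probe sets that name a single gene. Each gene was read from its brightest probe set, by the mean of all 9 arrays, and 81 genes reached a log2 value of at least 4 on at least 3 arrays. These 81 were tested among 12009 tested genes, out of 18194 genes with such a probe set. They are 33 genes of complex I, 8 complex I assembly factors (the Ndufaf genes), 4 of complex II, 8 of complex III, 11 of complex IV and 17 of complex V.

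The 3 groups were hybridised on 3 arrays each. Microvascular fragments came from embryos at day 18.5 and from adult mice of 1 year, and the embryonic brain left once fragments were taken out is called rest of brain. Embryos were of the NMRI strain with no sex given, and the adults were of mixed C57/SV129 background, 1 female and 2 males. No group carried a treatment or an engineered allele per the labels. RNeasy columns of the Micro kind served for embryonic RNA and of the Mini kind for adult RNA, which was amplified by a small-sample protocol from about 100 ng. Age therefore cannot be told apart from strain or extraction kit in any comparison with the adults. The labels name the 3 arrays of a group biological repeats without saying whether animals were pooled, and the isolation of the fragments is not given in the sources used here. For replicate 3 of rest of brain, 1 label states another embryonic day than the rest, and it was kept.

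Oxidative phosphorylation is the last stage of cellular respiration in the inner mitochondrial membrane. Complexes I and II pass electrons from NADH and succinate to ubiquinone, complex III passes them on to cytochrome c and complex IV to oxygen. Complexes I, III and IV pump protons as they do so, and complex V, the ATP synthase, makes ATP as the protons flow back. Most subunits are encoded in the nucleus, where the transcription factors NRF1, NRF2 (GABP) and YY1 and the coactivators of the PGC-1 family are known regulators. In brain capillaries the endothelium is known for transport across the blood-brain barrier, and neurons are known for a high demand for ATP.

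Some promoters of these genes held letters of known motifs, which the choice by symbol did not use. RefSeq promoters of GRCm38.p6, running from 250 bases before to 50 after the start, were matched for 74 of the 88 genes (79 promoters). On either strand, the palindromic NRF1 motif (a free base in its middle) stood in 22.8% of these promoters and in 4.6% of all 32851. The letters CCGGAAG, of the Ets family that includes GABP, stood in 24.1% against 8.86%. CAAGATGGC, of YY1, stood in 7.59% against 1.24%, and TCAAGGTCA, of the estrogen-related receptors, in 2.53% against 0.423%. The median GC content was 59.0% against 52.7%, which raises the chance of GC-rich letters, and no test was made. A match describes letters and not binding. Stretches with the NRF1 motif in capitals are shown for 3 genes that were lower in adult than in embryonic fragments (Atp5g2, Sdhd and Atp5k) and for Sdha, which was higher. All lie on the minus strand and are written 5′ to 3′ in the direction of the gene: Atp5g2 at chr15:102671055-102671114, Sdhd at chr9:50603894-50603953, Atp5k at chr5:108434415-108434474 and Sdha at chr13:74350241-74350300.
Atp5g2: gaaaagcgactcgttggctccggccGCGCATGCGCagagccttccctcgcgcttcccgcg
Sdhd: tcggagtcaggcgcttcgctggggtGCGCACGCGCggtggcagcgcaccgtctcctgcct
Atp5k: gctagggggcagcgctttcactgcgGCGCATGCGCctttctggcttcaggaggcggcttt
Sdha: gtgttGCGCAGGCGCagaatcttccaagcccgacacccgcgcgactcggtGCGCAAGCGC
The Sdha stretch, which ends at the base before the start, holds the motif at 2 places. The motif was present for 11 of the 42 matched genes that were lower in adult than in embryonic fragments and for 5 of the other 27 matched tested genes, so both kinds of gene carried it.

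The deposited values are log2 units after GCRMA, and all differences given are log2 differences of group means ± the standard error of the limma fit, with p-values adjusted over all 12009 genes. Each mean is over n = 3 arrays, whose number limits the precision. Array medians over all probe sets ran from 3.58 to 3.67. The tissue labels were checked by markers. All 15 endothelial and all 9 tested pericyte markers were higher in embryonic fragments than in rest of brain, and all 8 markers of microglia and macrophages were higher too. All 12 neuronal and 7 progenitor markers were lower, as were 6 of 7 astrocyte and 4 of 5 oligodendrocyte markers. The log2 of the summed endothelial signal was 17.59 to 17.80 in embryonic fragments and 11.90 to 12.22 in rest of brain, and that of the neuronal markers 11.39 to 12.46 and 16.66 to 16.87. Their part in the levels of the members was not tested. Among the 7 members that stayed below the filter, the third-highest value lay between 1.53 (Cox8c) and 3.58 (Cox7a1). The tested member nearest the limit was Cox8b at 4.45. The 7 were Ndufb1, Ndufb4, Cox6a2, Cox6b2, Cox7a1, Cox7b2 and Cox8c. The chosen probe sets of 54 tested members carry identifiers that mark probes shared between transcripts.

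Embryonic fragments and rest of brain, which share age and strain, held similar levels of most oxidative phosphorylation transcripts, and the called differences of at least 2-fold were all in complex I assembly factors. Of the 81 members, 4 were higher and 16 lower in embryonic fragments. These 20 make up 24.7% of the members, where 66.1% of all tested genes were called (28.9% higher and 37.2% lower). The called members Ndufaf2, Ndufaf3 and Ndufaf5, all assembly factors, differed by at least 2-fold. They are 3.7% of the members and 37.5% of the assembly factors, against 43% of all tested genes. The median difference was -0.10 over the members and -0.10 over all tested genes, and the 3 arrays of each group did not overlap for 11 members on the higher and 37 on the lower side (33.1% and 43.6% of all tested genes). In whole tissue, fewer cells of a type and less RNA per cell cannot be told apart. The counts rest on few arrays: lower calls fell to 9 without embryonic fragments replicate 1 or without rest of brain replicate 1. Higher calls fell to 2 without any of the 3 embryonic fragment arrays in turn, or without rest of brain replicate 2.

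**Figure D1:**
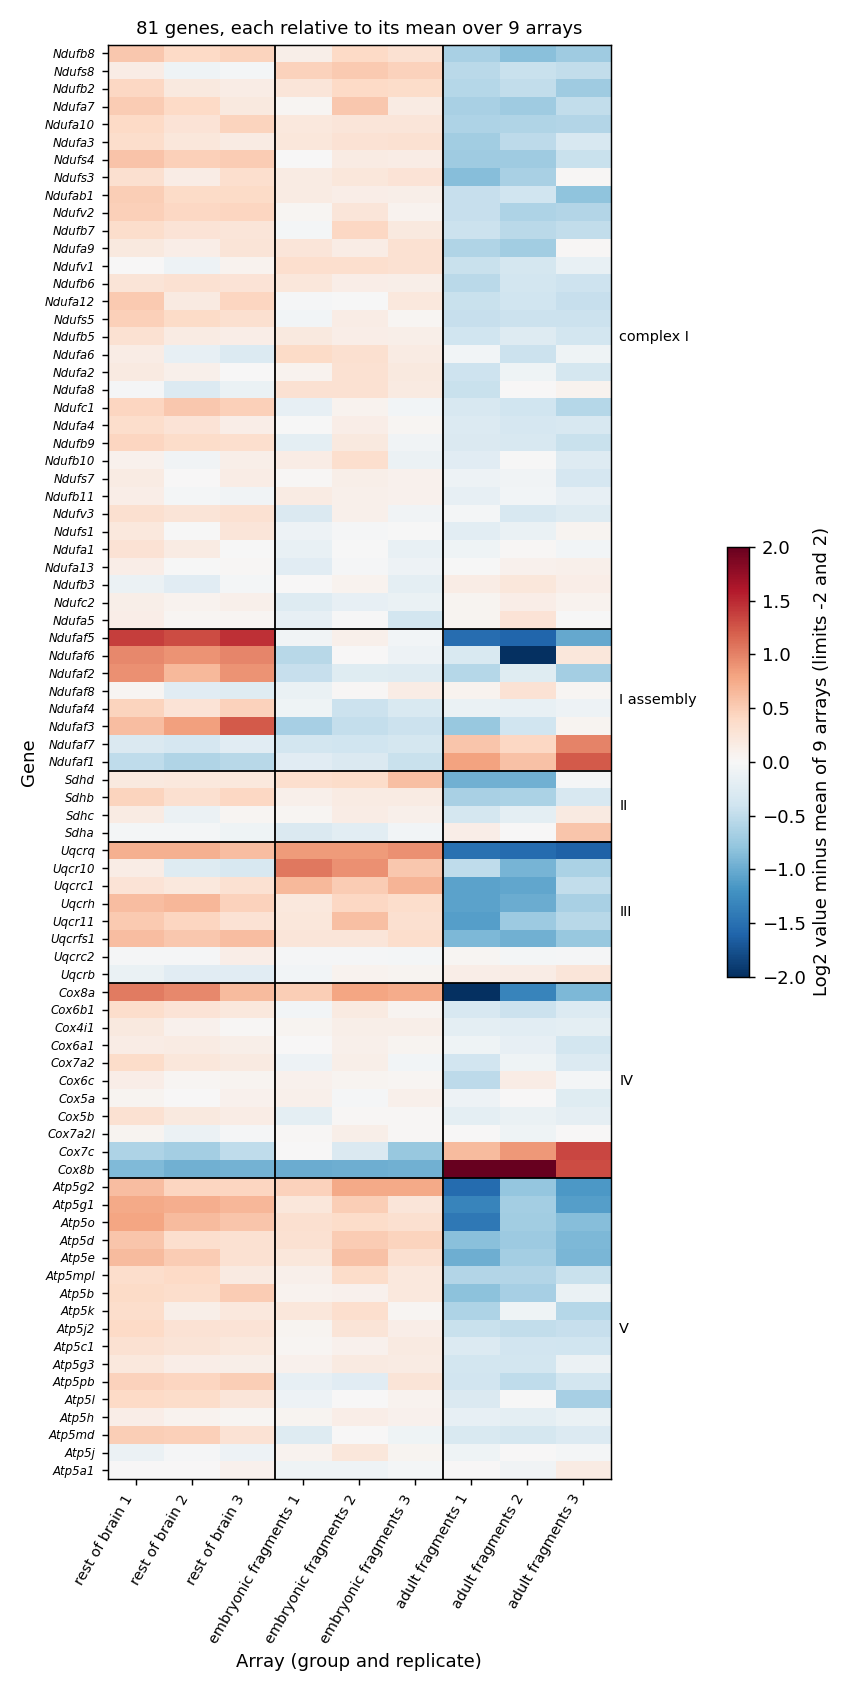
Each row is 1 of the 81 tested genes, ordered by complex and by its difference between the fragment groups, and each column is 1 of 9 arrays. Colour gives the log2 value minus the gene's mean over the 9 arrays, with colours limited at -2 and 2. The adult columns are mostly blue in complexes I, III and V, while Cox8b, Cox7c, Ndufaf1 and Ndufaf7 are red there.

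The complex I assembly factors, proteins that help build the complex without being part of it, had a median difference of -0.90 between embryonic fragments and rest of brain. Of the 8, 4 were lower and none was higher, which is 50% called where 66.1% of all tested genes were. Ndufaf3, which acts early in assembly together with Ndufaf4, was at 8.13, 8.32 and 8.36 in embryonic fragments and at 9.40, 9.61 and 10.02 in rest of brain, a difference of -1.41 ± 0.23 (adjusted p = 0.000492). Ndufaf5, an enzyme that hydroxylates an arginine of the core subunit Ndufs7, was at 8.64, 8.81 and 8.66 against 10.08, 10.02 and 10.16 (-1.38 ± 0.16, adjusted p = 5.1e-05). The fragment arrays lay below every rest of brain array for both genes. Ndufaf2, a chaperone of late assembly, was 2.20-fold lower, and Ndufaf4 was 1.58-fold lower, and these 4 calls were kept in every alternative that was run. A further Ndufaf4 probe set of like brightness differed by 0.008 and was not called. Ndufaf6 differed by -1.17 without passing the test, with fragments at 6.96, 7.53 and 7.41 and rest of brain between 8.42 and 8.50. Ndufaf1, Ndufaf7 and Ndufaf8 differed by 0.23, -0.09 and 0.15 and did not pass.

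**Figure D2:**
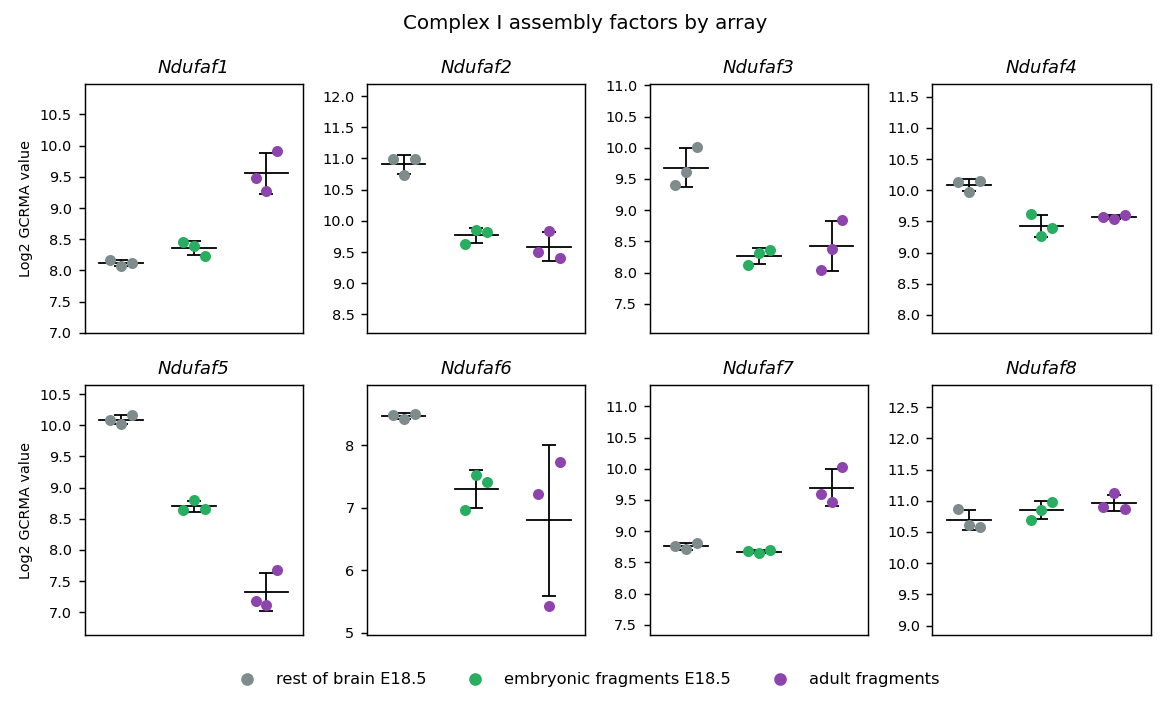
Points are arrays, with the group on the x axis and the log2 GCRMA value on the y axis of each panel. Horizontal lines are means and bars the SD over 3 arrays. Ndufaf2, Ndufaf3, Ndufaf4 and Ndufaf5 sit lower in embryonic fragments than in rest of brain, and Ndufaf1 and Ndufaf7 sit higher in adult fragments than in both embryonic groups.

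Subunits of complex I went both ways between embryonic fragments and rest of brain, by small amounts: 3 were higher and 8 lower of 33, with a median of -0.12 and a range of -0.54 to 0.48. These counts are from the fit without pairing, and with the replicate number as a block the lower subunits Ndufa12 and Ndufv3 lost their calls, while the members called in all complexes came to 6 higher and 19 lower. Ndufs8, an iron-sulfur core subunit, was at 13.25, 13.33 and 13.26 in embryonic fragments and at 12.95, 12.71 and 12.75 in rest of brain (0.48 ± 0.10, adjusted p = 0.00261). Its groups did not overlap, and the call was kept in every alternative. Ndufa8, an accessory subunit, was higher by 0.41 ± 0.15 (adjusted p = 0.0413), but lost its call when any of the 6 embryonic arrays was left out (adjusted p = 0.0512 to 0.126). Ndufv1, which binds NADH, was the other higher subunit (1.26-fold), and it lost its call without shared probe sets or when any embryonic array but rest of brain replicate 3 was left out (adjusted p = 0.0504 to 0.257). Ndufc1, an accessory subunit, was at 12.91, 13.15 and 13.03 against 13.51, 13.63 and 13.57 (-0.54 ± 0.11, adjusted p = 0.00231). Ndufs4, an accessory subunit near the NADH-oxidizing arm, was at 11.39, 11.54 and 11.53 against 11.95, 11.86 and 11.88 (-0.41 ± 0.11, adjusted p = 0.0096). Every fragment array lay below every rest of brain array for both. Of 6 core subunits measured, 2 were higher and 1 lower, and of 27 accessory subunits 1 was higher and 7 lower.

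In the other complexes few subunits were called between embryonic fragments and rest of brain. In complex II none of the 4 passed, with differences of -0.13 (Sdha), -0.26 (Sdhb), 0.07 (Sdhc) and 0.22 (Sdhd). In complex III, Uqcr10, a small subunit, was at 9.72, 9.57 and 9.21 in fragments and at 8.81, 8.41 and 8.34 in rest of brain. This was the largest higher difference of all members (0.98 ± 0.19, 1.98-fold, adjusted p = 0.00153), and its arrays did not overlap. Averaged with its dimmer probe sets, Uqcr10 was higher by 0.33. Uqcrfs1, the Rieske iron-sulfur protein, was lower by a difference of -0.32 ± 0.10 (adjusted p = 0.0194), a call lost without replicate 1 of either group or without embryonic fragments replicate 2 (adjusted p = 0.0533 to 0.0615). In complex IV 1 of 11 was called: Cox5b (-0.26 ± 0.10, adjusted p = 0.0481). It lost its call with the replicate number as a block (adjusted p = 0.109) and in 10 of the other alternatives, among them each of the 6 embryonic arrays and adult replicate 1 or 2 left out (adjusted p = 0.0547 to 0.156). In complex V 2 of 17 were lower. Atp5md, a small membrane subunit linked to dimers of the synthase, was at 12.22, 12.48 and 12.38 against 12.97, 12.96 and 12.77 (-0.53 ± 0.11, adjusted p = 0.00226). Atp5pb, subunit b of the peripheral stalk, was at 14.22, 14.14 and 14.64 against 14.84, 14.81 and 14.87 (-0.51 ± 0.14, adjusted p = 0.0106). The fragment arrays of both genes lay below all of rest of brain, with replicate 3 of Atp5pb closest.

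Adult fragments held lower levels of most oxidative phosphorylation transcripts than embryonic fragments. On the chosen probe sets this was so in complexes I, III and V above all. A few members of complex IV and of the assembly factors were higher. Of 81 members, 47 were lower and 6 higher (58% and 7.41%), and 53 were called in all (65.4%). Among all tested genes 57.1% were called, 29.7% lower and 27.4% higher. The median difference was -0.43 over the members and -0.02 over all tested genes. Without shared probe sets the medians of complexes I, II and IV came close to each other, at -0.712, -0.670 and -0.647. At least a 2-fold difference was reached by 18 called members (22.2%, against 31.1% of all tested genes), so the lower values were frequent and mostly small. Arrays did not overlap for 54 members on the lower side and 10 on the higher (32.4% and 30.3% of all tested genes). The adult arrays also differed in markers and in RNA quality, whose part in the result was not tested. The difference between the 3′ and 5′ control probe sets of Gapdh was 2.42 to 2.74 in adult fragments, 2.02 to 2.09 in embryonic fragments and 1.75 to 1.84 in rest of brain. For Actb it was 1.88 to 2.92, 1.20 to 1.28 and 1.48 to 1.65 in the same order.

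Markers of cell types also differed between adult and embryonic fragments. Of 8 smooth muscle markers 7 were higher and 1 lower in adult fragments, and the log2 of their summed signal was 15.62 to 15.76 against 12.39 to 12.94 in embryonic fragments. None of the 8 was under 4 on all adult arrays, while Cnn1, Lmod1 and Pln were under 4 on all embryonic fragment arrays. Cnn1, Lmod1 and Pln could not have passed the filter without the adult arrays, so their higher calls are no separate support. Of 12 neuronal markers 8 were lower and 1 higher (summed signal 10.50 to 10.66 against 11.39 to 12.46), and 7 were under 4 on every adult array: Rbfox3, Tubb3, Elavl3, Slc17a6, Nefl, Dcx and Neurod6. Of 7 progenitor markers 5 were lower (9.28 to 10.42 against 14.32 to 15.17), and Pax6, Eomes, Neurog2 and Dlx1 were under 4 on every adult array. Of 7 tested astrocyte markers 6 were higher and 1 lower (14.46 to 14.76 against 14.32 to 14.54). Endothelial markers went both ways, 4 higher and 5 lower of 15 (17.98 to 18.02 against 17.59 to 17.80), and pericyte markers 2 higher and 3 lower of 9 (16.41 to 16.51 against 16.09 to 16.32). Of 8 markers of microglia and macrophages 1 was lower (16.26 to 16.82 against 15.52 to 16.89). Oligodendrocyte markers were split, 2 higher and 2 lower of 5, and red cell markers 1 and 1 of 2. The part of these markers in the levels of the members was not tested.

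**Figure D3:**
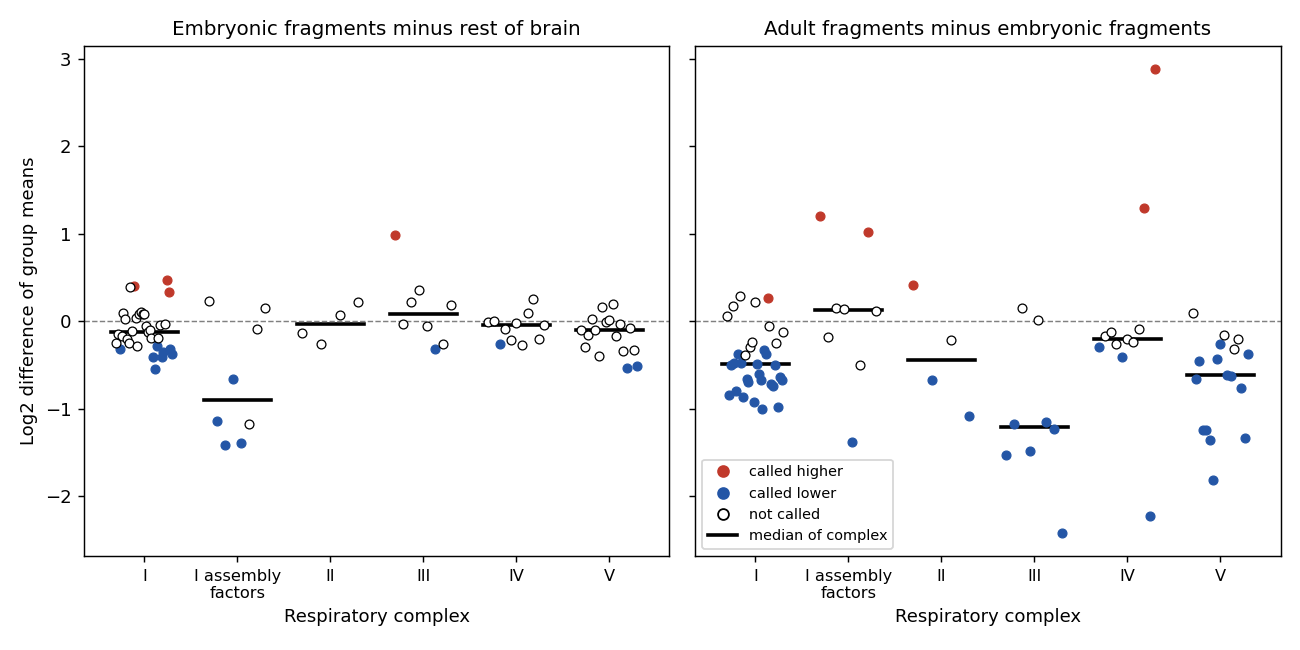
Each point is 1 tested gene, with its complex on the x axis and the log2 difference of group means on the y axis, on the left for embryonic fragments minus rest of brain and on the right for adult minus embryonic fragments. Red and blue points passed limma at an adjusted p under 0.05 and bars are medians. The median of complex III lies near 0.08 on the left and near -1.20 on the right.

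In complex I, 22 of 33 subunits were lower in adult than in embryonic fragments and 1 was higher, with a median of -0.49 and no difference reaching 2-fold. Ndufs8 was at 12.26, 12.35 and 12.30 in adults and had been at 13.25 to 13.33 in embryonic fragments (-0.98 ± 0.10, adjusted p = 5.84e-05). Its level in adult fragments thus lay below both embryonic groups, with no overlap, and 4 further probe sets of the gene were lower by differences of -0.74 to -1.08. Ndufb8, an accessory subunit of the membrane arm, had the largest difference, with adults at 11.62, 11.43 and 11.56 and embryonic fragments at 12.38, 12.66 and 12.57 (1.998-fold, adjusted p = 9.83e-05). A dimmer probe set of Ndufb8 went the other way (7.33 against 6.10, a difference of 1.23), so the direction depends on the probe set. Ndufc2, an accessory subunit, was the higher one (0.27 ± 0.09, adjusted p = 0.0298), at 14.82, 14.90 and 14.84 against 14.52, 14.60 and 14.63. Its 2 other probe sets past the filter differed by -0.21 and -0.19 without being called, and the call was also lost when adult replicate 2 or each array of embryonic fragments was left out (adjusted p = 0.0527 to 0.088). Ndufa4, first assigned to complex I and now assigned to complex IV, is counted with complex I here by its symbol. It was at 11.39, 11.33 and 11.34 against 11.66, 11.80 and 11.71 (-0.37 ± 0.10, adjusted p = 0.0119). After cyclic loess Ndufa4 lost its call (adjusted p = 0.0816). Of the 6 core subunits 4 were lower, and of the 27 accessory subunits 18 were lower and 1 higher.

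The medians of complex I were close on adult replicates 1, 2 and 3, at 12.258, 12.345 and 12.322. Single subunits differed in how far their adult arrays lay apart. Ndufs3, a core subunit, was at 10.83, 11.04 and 11.71 in adults and at 11.85 to 11.95 in embryonic fragments, so adult replicate 3 lay close to the embryonic range. The call of Ndufs3 was lost without adult replicate 1 or 2 (adjusted p = 0.051 to 0.0565). Ndufa10, an accessory subunit, was at 10.91, 10.93 and 10.94 against 11.75 to 11.78, with all 3 adult arrays at nearly the same level.

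The assembly factors split between the ages, with a median of 0.13, 2 higher and 1 lower of 8. Ndufaf1, part of the machinery that builds the membrane arm, was at 9.49, 9.27 and 9.91 in adult fragments and at 8.45, 8.39 and 8.23 in embryonic fragments (1.20 ± 0.16, adjusted p = 0.000287). Ndufaf7, a methyltransferase needed for assembly of the complex, was at 9.59, 9.46 and 10.03 against 8.68, 8.64 and 8.69 (1.02 ± 0.15, adjusted p = 0.000414). All adult arrays were above all embryonic arrays for both genes. Ndufaf5 was lower by a difference of -1.37 ± 0.16 (adjusted p = 0.000103), at 7.18, 7.12 and 7.68, which puts adult fragments below embryonic fragments as these were below rest of brain. These 3 calls were kept in every alternative. Ndufaf6 spread widely in adults, at 7.22, 5.42 and 7.74, and was not called against embryonic fragments.

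The 4 subunits of complex II, the succinate dehydrogenase, did not move together. Sdha, the flavoprotein that oxidizes succinate, was at 12.69, 12.55 and 13.11 in adult and at 12.27, 12.34 and 12.50 in embryonic fragments, higher by 0.41 ± 0.15 (adjusted p = 0.0434). This call was lost in 13 of 21 alternatives (adjusted p = 0.0514 to 0.117), among them each embryonic array and adult replicate 1 or 3 left out, and the difference was 0.25 without adult replicate 3. A further Sdha probe set was higher by 0.51. Sdhb, the iron-sulfur subunit, was at 11.43, 11.44 and 11.76 against 12.17, 12.23 and 12.23 (-0.67 ± 0.12, adjusted p = 0.00118). Sdhd, a membrane anchor, was at 9.85, 9.84 and 10.78 against 11.14, 11.17 and 11.41 (-1.08 ± 0.24, adjusted p = 0.0045). Adult arrays of Sdhb and Sdhd lay below all embryonic ones, with replicate 3 the highest in both. A further Sdhd probe set was dimmer than the chosen one in embryonic fragments but not in adults. Its means were 10.394 in adult and 10.405 in embryonic fragments (-0.01), and it was not called. Sdhc, the other anchor, did not pass, at 10.85 to 11.38 against 11.22 to 11.33. The promoter letters printed above for Sdha and Sdhd thus stood before 1 gene of each direction.

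Complex III showed the lowest median of the complexes, -1.20, with 6 of 8 subunits lower, each by at least 2-fold. Uqcrq, a small subunit of the membrane part, was at 9.68, 9.64 and 9.56 in adult fragments and at 12.02, 12.02 and 12.08 in embryonic fragments. That is a difference of -2.42 ± 0.09, or 5.33-fold (adjusted p = 1.46e-07), with embryonic and adult arrays far apart and little spread in each group. Its 3 other probe sets stayed below the filter. Uqcr10 was at 8.16, 7.73 and 8.03 against 9.21 to 9.72 (-1.53 ± 0.19, adjusted p = 0.00017). The mean of all Uqcr10 probe sets differed by 0.11 and was not called. Its 2 other probe sets had group means of at most 4.51. Uqcrc1, a core protein, was 2.80-fold lower, Uqcrh, the hinge protein, 2.34-fold, Uqcr11 2.26-fold and Uqcrfs1 2.22-fold. Uqcrc1 showed adult replicate 3 at 10.89, above replicates 1 and 2 at 10.32 and 10.35 and below 11.90 to 12.08 in embryonic fragments. Uqcrb and Uqcrc2, the ubiquinone-binding protein and the other core protein, differed by 0.16 and 0.02 and were not called.

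In complex IV, the cytochrome c oxidase, the members with the largest differences were isoforms and small subunits that went in opposite directions. Of 11 tested members 3 were lower and 2 higher, and the median was -0.20. Cox8a, the widely expressed form of subunit 8, was at 5.81, 6.92 and 7.34 in adult fragments and at 8.73, 9.04 and 8.98 in embryonic fragments (-2.22 ± 0.34, 4.67-fold, adjusted p = 0.000608). Its adult arrays were all lower and spread over more than the embryonic ones, and a further Cox8a probe set was lower by a difference of -1.29. Cox8b, the form known from heart and skeletal muscle, was at 5.29, 5.43 and 4.45 in adult fragments and at 2.16, 2.17 and 2.20 in embryonic fragments. As all embryonic arrays were under 4, the change is a bound, at least 2.08-fold higher in adults. The gene passed the filter through the adult arrays alone, so its call is no separate support and no p-value is given. It is counted among the higher members in both comparisons with adults. Beside it stood Pln, a muscle regulator of calcium uptake counted with the smooth muscle markers, at 12.00, 11.92 and 11.82 in adult and under 4 on all embryonic arrays. The part of smooth muscle in the Cox8b level was not tested. The last 100 bases before the starts of the 2 genes are shown because the members of this pair moved apart: Cox8a at chr19:7217617-7217716 and Cox8b at chr7:140900447-140900546, both on the minus strand of GRCm38.p6 and with the NRF1 motif in neither stretch.
Cox8a: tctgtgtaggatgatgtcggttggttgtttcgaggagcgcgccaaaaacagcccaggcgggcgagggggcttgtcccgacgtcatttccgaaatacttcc
Cox8b: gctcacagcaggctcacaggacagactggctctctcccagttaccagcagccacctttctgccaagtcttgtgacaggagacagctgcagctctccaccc
The GC content was 57% and 59% in these stretches. Counted from the start, the Cox8a promoter held the Ets letters CCGGAAG on the other strand at -5, across the end of its stretch, and at 33. The Cox8b promoter held none.

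Cox7c, a small subunit without tissue forms in this set, was the other higher member of complex IV, at 7.92, 8.15 and 8.62 in adult and 7.29, 6.99 and 6.53 in embryonic fragments (1.29 ± 0.23, adjusted p = 0.00127). The groups did not overlap, but the mean over both Cox7c probe sets was not called (0.69, adjusted p = 0.0913). Cox6b1, the widely expressed form of subunit 6b, was at 14.57, 14.46 and 14.63 against 14.85, 15.08 and 14.95 (-0.40 ± 0.11, adjusted p = 0.0106). Cox4i1, the common form of subunit 4, was at 14.10, 14.09 and 14.10 against 14.35, 14.42 and 14.42 (-0.30 ± 0.09, adjusted p = 0.0223). Cox4i1 lost its call after cyclic loess (adjusted p = 0.141), after centring on array medians (adjusted p = 0.0638) and without embryonic fragments replicate 2 or 3 (adjusted p = 0.0661 and 0.0665). Cox6a1 and Cox7a2, the common forms of subunits 6a and 7a, differed by -0.26 and -0.24 and Cox7a2l, which links complexes III and IV, by -0.08, and none passed on the chosen probe sets. A further Cox6a1 probe set, at a mean of 11.60 against 13.43, was called lower with a difference of -1.83. Cox5a, Cox5b and Cox6c were not called on their chosen sets either. Further sets called lower differed by -1.29 (Cox5a), -0.93 and -0.38 (Cox5b), -0.55 (Cox6c) and -0.44 (Cox7a2l). Other sets of Cox5a (-0.085), Cox5b (0.156), Cox7a2 (-0.245) and Cox7a2l (-0.186) were not called. The muscle forms Cox6a2 and Cox7a1 stayed under 4 on all 9 arrays, at 2.33 to 2.34 and 3.31 to 3.74, as did Cox6b2, known from testis, at 1.99 to 3.24. So of the muscle forms on these arrays, Cox8b alone passed the filter. Cox4i2 and Ndufa4l2, forms known from lung and pericytes and kept outside the set, were not tested. Cox4i2 was at 2.12 to 2.14 on all arrays. Ndufa4l2 was at 2.98, 3.55 and 4.55 in embryonic fragments, at 2.63 to 2.78 in adult fragments and at 2.15 to 2.18 in rest of brain.

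**Figure D4:**
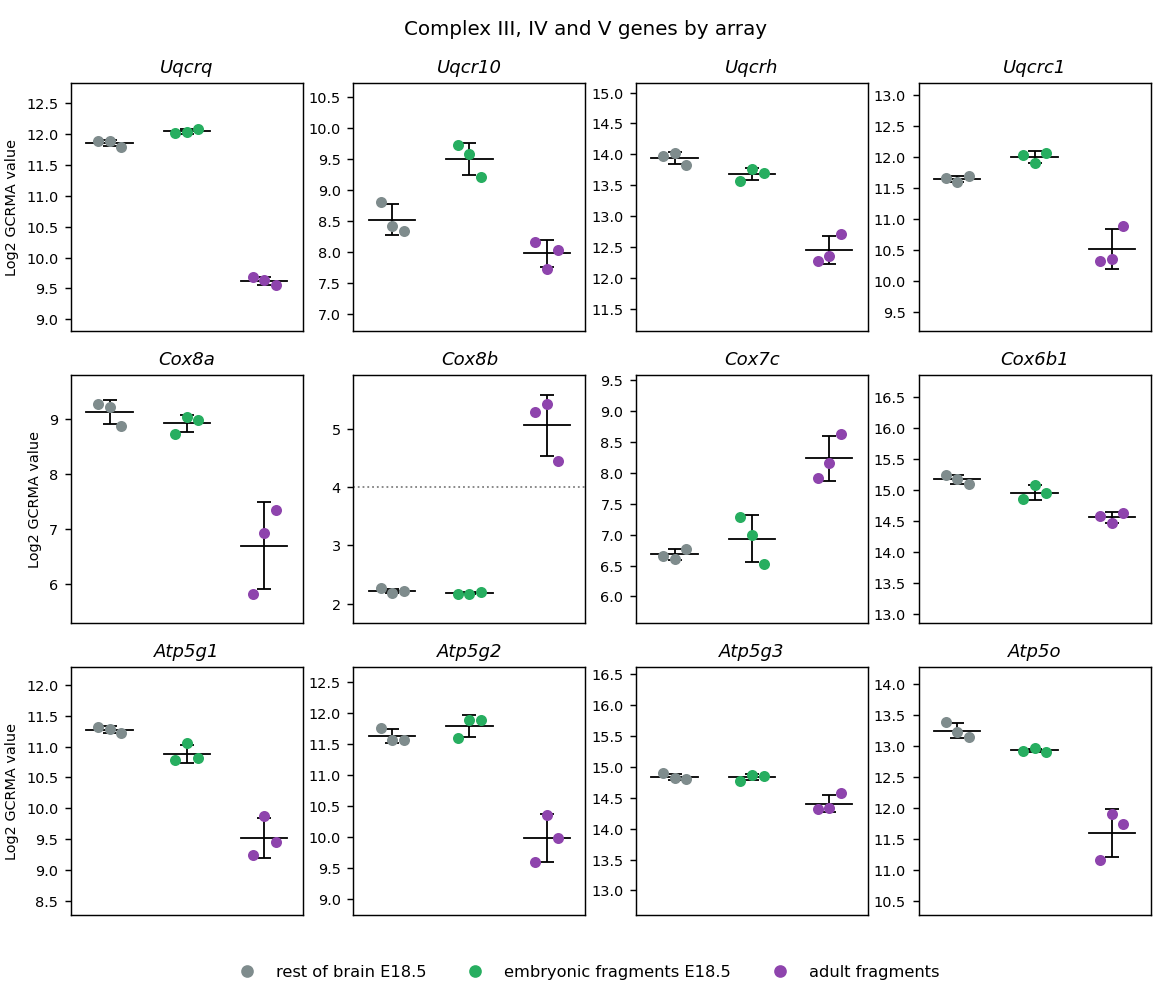
Points are arrays, coloured by group, with the log2 GCRMA value on the y axis of each panel. Horizontal lines are means, bars the SD over 3 arrays, and the dotted line in the Cox8b panel the filter limit of 4. Adult arrays sit below both embryonic groups in 10 panels and above them for Cox8b and Cox7c.

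In complex V, the ATP synthase, 13 of 17 members were lower in adult than in embryonic fragments and none was higher, with a median of -0.62. The mature subunit c, which forms the rotating ring of the membrane part, is made from 3 genes, and all were lower. Atp5g2 was at 9.58, 10.36 and 9.98 against 11.59, 11.89 and 11.89 (-1.81 ± 0.19, 3.52-fold, adjusted p = 7.16e-05). Atp5g1 was at 9.24, 9.87 and 9.46 against 10.79, 11.05 and 10.81 (-1.36 ± 0.17, adjusted p = 0.000152). Atp5g3 was at 14.32, 14.33 and 14.57 against 14.78, 14.87 and 14.85 (-0.43 ± 0.10, adjusted p = 0.00767). The arrays did not overlap for any of the 3 genes, and the difference was smallest for Atp5g3, which had the highest level of the 3 in all groups. A dim probe set of Atp5g1 had means of 4.05 and 3.36, near or under the filter limit, and gives no direction. Atp5o, the stalk protein that joins head and membrane part, was 2.52-fold lower, as were Atp5d and Atp5e of the central stalk by 2.36-fold and 2.35-fold. Atp5b, the catalytic beta subunit, was lower by a difference of -0.66 ± 0.17 (adjusted p = 0.0106), at 13.22, 13.38 and 13.91 against 14.12, 14.12 and 14.25. Atp5a1, the alpha subunit, was at 14.45, 14.36 and 14.61 against 14.36 to 14.40 and was not called. A further Atp5a1 probe set, at a mean of 12.70 against 13.54, was called lower with a difference of -0.84. Among members, the 16 with a mean of at least 14 had a median of -0.25, and the other 65 a median of -0.50. Over all tested genes the same split gave -0.08 and -0.014. There genes went both ways, so a median of signed differences does not give their size. Between embryonic fragments and rest of brain the split gave -0.126 and -0.102 for the members. The part of signal level was not tested.

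Against rest of brain, adult fragments were lower in more members still. This comparison shares its adult arrays with the one above and its rest of brain arrays with the first, and age, strain and kit differ along with tissue. Of 81 members 57 were lower and 6 higher, 77.8% in all, where 76% of all tested genes were called (42.9% lower and 33.1% higher). The median difference was -0.62 over the members and -0.17 over all tested genes, and 20 called members reached 2-fold (24.7%, against 52.9% of all tested genes). Arrays did not overlap for 57 members on the lower and 8 on the higher side (45% and 34.9% of all tested genes). The lower members by complex were 23 of 33 in complex I, 5 of 8 assembly factors, 2 of 4 in complex II, 6 of 8 in complex III, 6 of 11 in complex IV and 15 of 17 in complex V. The higher ones were Ndufb3, Ndufaf1, Ndufaf7, Uqcrb, Cox7c and Cox8b.

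Among single members, Ndufaf5 had the largest difference from rest of brain, -2.76 ± 0.16 or 6.76-fold lower in adult fragments (adjusted p = 3.94e-07), from 7.12 to 7.68 against 10.02 to 10.16. Ndufaf6 differed by -1.67 ± 0.51 (adjusted p = 0.0145), and by -0.99 without adult replicate 2, the lowest array. In complex I, Ndufs4 was lower by a difference of -1.15 ± 0.11 (adjusted p = 1.44e-05) and Ndufb8 by -1.19 ± 0.11 (adjusted p = 1.24e-05), with its other probe set at a mean of 7.33 against 2.72, which is under the filter limit. Ndufb3, an accessory subunit, was higher by 0.30 ± 0.11 (adjusted p = 0.0305), a call lost without replicate 1 or 2 of either group (adjusted p = 0.0542 to 0.0942). Sdhb and Sdhd differed by -0.93 ± 0.12 and -0.86 ± 0.24 (adjusted p = 8.13e-05 and 0.00964), while Sdha and Sdhc, at 0.28 and -0.14, did not pass. The further Sdhd probe set differed by 0.066 and was not called.

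In complex III, Uqcrq was 4.68-fold lower than in rest of brain (adjusted p = 4.86e-08) and Uqcrh 2.81-fold (adjusted p = 9.62e-06). Uqcr10, higher in embryonic fragments than in rest of brain, was 1.46-fold lower in adult fragments (adjusted p = 0.0267). This call was lost without rest of brain replicate 1 or adult replicate 2 and after either other normalization, and the mean of all its probe sets was called in the other direction. Uqcrb was higher by 0.38 ± 0.09 (adjusted p = 0.00516), at 15.19, 15.21 and 15.30 against 14.92, 14.83 and 14.82. Its call was lost without shared probe sets (0.16, adjusted p = 0.258). In complex IV, Cox8a was 5.38-fold lower (adjusted p = 0.00018), Cox6b1 1.53-fold lower (adjusted p = 0.000634) and Cox7c 2.93-fold higher (adjusted p = 0.000228). With all rest of brain arrays under 4, Cox8b has a bound here too, at least 2.08-fold higher. Cox6a1, Cox7a2 and Cox4i1 were lower by differences of -0.34, -0.50 and -0.31, and Cox6a1 by -1.16 with the mean of its probe sets (adjusted p = 5.44e-06). The calls of Cox6a1 and Cox4i1 were lost after cyclic loess (adjusted p = 0.0986 and 0.0943). Ndufa4 was lower by a difference of -0.57 ± 0.10, and Cox7a2l differed by 0.01. In complex V, Atp5g1, Atp5g2 and Atp5g3 were 3.37-fold, 3.13-fold and 1.35-fold lower, and Atp5o 3.15-fold (adjusted p = 1.23e-05, 5.47e-05, 0.00456 and 3.54e-05).

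Other genes of mitochondrial energy metabolism were counted from lists chosen by function. Of 17 genes of the citrate cycle, which feeds electrons to the chain, 2 were higher and 3 lower in embryonic fragments than in rest of brain, and 0 and 7 in adult than in embryonic fragments. That is 29.4% and 41.2% called, against 66.1% and 57.1% of all tested genes. Citrate synthase (Cs) was lower in embryonic fragments by a difference of -0.57 ± 0.10, Suclg2, a subunit of succinate-CoA ligase, was higher by 1.02 ± 0.15, and Idh2, the NADP-dependent isocitrate dehydrogenase, was lower in adult fragments by a difference of -1.31 ± 0.22. Of 15 electron carriers and ubiquinone enzymes, 2 and 3 were called in the first comparison and 2 and 5 in the other (higher and lower), or 33.3% and 46.7%. Etfdh, which passes electrons from fatty acid oxidation to ubiquinone, was higher by 0.84 ± 0.15 in embryonic fragments, and Pdss2, of ubiquinone synthesis, lower by a difference of -0.71 ± 0.15. Between the ages Coq10b, which binds ubiquinone, was higher by 0.77 ± 0.18 in adults, and Coq3, a methylase of ubiquinone synthesis, was lower by a difference of -1.46 ± 0.42.

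A list of assembly factors of complexes II to V, with related genes such as Atpif1, had 27 tested genes. Of these, 4 were higher and 9 lower in embryonic fragments than in rest of brain. In adult against embryonic fragments 6 were higher and 17 lower. The share called was 48.1%, below the 66.1% of all tested genes, in the first comparison and 85.2%, against 57.1%, in the other. Ttc19, which acts on complex III, was at 6.12, 5.60 and 6.35 in embryonic fragments and at 8.69, 8.36 and 8.52 in rest of brain (-2.50 ± 0.22, adjusted p = 1.07e-05). Atpaf1, a chaperone of the ATP synthase head, was higher there by 0.93 ± 0.14. Atpif1, the inhibitor that keeps the ATP synthase from running backwards, was at 11.71, 11.87 and 11.99 in adult and at 13.93, 14.07 and 14.08 in embryonic fragments, a difference of -2.17 ± 0.11 (adjusted p = 8.77e-07). Sco1, a copper chaperone of complex IV, was higher in adults by 0.88 ± 0.15. Rest of brain held the highest Atpif1 levels, 14.71 to 14.83, so the 3 groups did not overlap in this gene.

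Among 18 tested regulators of mitochondrial biogenesis and of mitochondrial DNA, the shares called were near or below those of all tested genes, 66.7% against 66.1% and 50% against 57.1%, and Ppargc1a differed most in both comparisons. Of the 18, 5 were higher and 7 lower in embryonic fragments than in rest of brain, and 3 and 6 in adult than in embryonic fragments. Ppargc1a, the coactivator PGC-1 alpha, was at 5.67, 5.72 and 4.66 in embryonic fragments, at 9.82, 9.68 and 9.47 in rest of brain and at 9.24, 9.04 and 8.90 in adult fragments. Embryonic fragments were thus 19.8-fold below rest of brain (-4.31 ± 0.27, adjusted p = 1.02e-06) and 13.1-fold below adult fragments (3.71 ± 0.27, adjusted p = 7.5e-06), while the other groups were close and did not pass against each other (adjusted p = 0.0734). Ppargc1b, the related PGC-1 beta, was at 8.12, 7.80 and 7.30 in embryonic fragments, above rest of brain at 5.66 to 5.80 (4.01-fold, adjusted p = 5.36e-05), with adult fragments at 6.67 to 7.32. The level of Ppargc1a was lowest and that of Ppargc1b highest in embryonic fragments. Twnk, the helicase of mitochondrial DNA, was lower in adult than in embryonic fragments by a difference of -1.16 ± 0.21 (adjusted p = 0.00149) and lower there than in rest of brain by -2.54. Of the genes encoded in mitochondrial DNA, ND5 of complex I was measured, at 11.39, 11.49 and 11.44 in embryonic fragments, 11.89 to 11.91 in rest of brain and 11.83, 11.84 and 12.06 in adult fragments. It was lower in embryonic fragments than in rest of brain (-0.46 ± 0.10, adjusted p = 0.00302) and higher in adult than in embryonic fragments (0.47 ± 0.10, adjusted p = 0.00373), where most nuclear complex I subunits were lower.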

How the data were processed

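RNA of 9 mouse brain samples was hybridised, 1 array each. The deposited values are log2, 1 per probe set. The submitters' processing notes name GCRMA 2.6.0 and R 2.4.1 as the authors' tools. That they are log2 was read from their range. GCRMA normalizes arrays by quantiles, so a change in total RNA per cell cannot be seen. Scanner files were not analysed here. Unused per-sample columns numbered 0, and no arrays were identical.

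Of 45101 probe sets, 34958 name a single gene, 932 name several and 9211 are unnamed here. A gene was read from its brightest single-gene probe set, by the mean of all 9 arrays, and tested if at least 4 on at least 3 arrays. Symbols of all 88 members were found in a RefSeq table of GRCm38.p6. Tests used limma 3.58.1 (lmFit, eBayes; 2-sided) under R 4.3.3, with all 9 arrays in 1 fit. P-values were adjusted by Benjamini-Hochberg over 12009 genes, and called at an adjusted p under 0.05. The fit had 6 residual and 2.43 prior degrees of freedom. With 3 arrays against 3, an exact permutation test cannot go below 0.10, so none was used. Simulated data for embryonic fragments against rest of brain held 12009 genes, with 100 changed by 0.5 on the log2 scale and 100 by 1. Of these, 6% and 54% were called, with 2 unchanged genes called. In the deposited data 66.1% of all tested genes were called, so these shares do not give the power of that comparison.

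The members and gene lists were chosen with earlier results of these data known. Named genes were, per complex and comparison, the 2 called members furthest from 0 in each direction, the 4 Sdh genes, the isoform groups of complexes IV and V with Ndufa4 whatever their values, and the called gene with the largest difference in each direction from each list of other pathway genes. Genes named beyond these were chosen after their values were seen. Replicate numbers come from the sample titles. Deviations of same-numbered arrays correlated at 0.19, 0.20 and 0.22 between embryonic fragments and rest of brain, so the numbers were taken to pair these samples. The main fit did not use this pairing, so its standard errors and p-values are unpaired. The replicate block was run as an alternative. Between the ages the correlations were 0.03, -0.08 and 0.21, and between adult fragments and rest of brain -0.09, -0.07 and 0.13, so they were not paired. Alternatives covered normalization, centring, the filter, the probe set, the variance model, a replicate block and leaving out each array.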

Additional observations from a re-analysis of the deposited data

How the results depend on the processing

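The counts and medians were each compared with their values under the alternatives, which gave 504 pairs of result and alternative. Of these, 452 were marked unchanged and 52 changed, and 3 of the changed medians reversed sign. A count within a set ratio of the main one was marked unchanged. So was a median that moved by less than its SD between arrays of a group, even if a median near 0 turned sign. Among single members, 11 of 20, 32 of 53 and 48 of 63 calls (embryonic fragments against rest of brain, adult against embryonic fragments, adult fragments against rest of brain) were kept in every alternative. The cause of each change was not tested. Cyclic loess moved the median of all tested genes between adult fragments and rest of brain from -0.17 to -0.03.

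For embryonic fragments against rest of brain, the 4 higher calls became 10 with the mean of all probe sets, 7 with limma-trend, 8 with array weights and 7 with the 2 groups fitted alone. Leaving out an array gave 2 to 6 higher and 9 to 22 lower calls. The mean of all probe sets gave medians of -0.049 (members), -0.731 (assembly factors) and 0.093 (complex II). Without probe sets marked as shared the medians were -0.132 (complex II) and -0.103 (complex III). Leaving out an array gave -0.204 to -0.108 for complex I. Small differences turned sign for Sdha (0.084, mean of all probe sets), Cox4i1 and Atp5g3 (0.004 and 0.005, arrays centred on their medians). With an array left out they ran from -0.048 to 0.038 for Cox4i1, -0.028 to 0.019 for Atp5g3 and -0.001 to 0.134 for Sdhc.

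For adult against embryonic fragments, the 6 higher calls became 10 after cyclic loess and 3 with the mean of all probe sets. Medians after cyclic loess were -0.294 (members), -0.353 (complex I), 0.267 (assembly factors) and -0.067 (complex IV). Without shared probe sets they were -0.601, -0.712, -0.006 and -0.647 in that order, and -0.670 for complex II and -0.947 for complex III. With the mean of all probe sets they were 0.023 (assembly factors), -0.265 (complex II) and -0.796 (complex III). The assembly factors were at 0.034 with array weights and at 0.038 to 0.166 with an array left out. Differences turned sign for Ndufc2 (-0.033), Ndufb8 (0.113), Uqcr10 (0.110) and Sdhc (0.015) with the mean of all probe sets, for Ndufc2 (-0.208), Ndufb8 (1.225) and Atp5g1 (0.687, from values near or under 4) without shared probe sets, and for Cox7a2l (0.050) after cyclic loess.

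For adult fragments against rest of brain, higher calls numbered 11 with the mean of all probe sets. Medians after cyclic loess were -0.476 (members), -0.416 (complex I), -0.727 (assembly factors), -1.014 (complex III) and -0.178 (complex IV). With the mean of all probe sets they were -0.497 (members), -0.475 (complex I), -0.139 (complex II), -0.846 (complex III) and -0.393 (complex IV). Without shared probe sets they were -0.745, -0.716 and -0.857 for members, complex I and complex II, and -0.821 for complex IV, which was at -0.191 with no filter. An array left out gave -0.93 to -0.744 for the assembly factors and -1.32 to -1.037 for complex III. Signs turned for Ndufb8 (1.707 and 4.606, mean of all and without shared probe sets, the latter from rest of brain values with a mean under 4, so no size), Sdhc (0.012 after cyclic loess, 0.117 with the mean) and Cox7a2l (-0.182 with the mean, -0.038 to 0.047 with an array left out).

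With the replicate number as a block, embryonic fragments against rest of brain gave 6 higher and 19 lower members, and the calls of Cox5b, Ndufa12 and Ndufv3 were lost. Where the numbers do not pair the samples, the block gave 4 and 39 for adult against embryonic fragments and 5 and 51 for adult fragments against rest of brain. Of 47 members with further probe sets past the filter, those called and with such a set called in the other direction numbered 0 of 12, 6 of 32 and 4 of 36. The number of arrays limits what could be called, as did signal near the filter for Cox8b.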
